A study of Homo sapiens with 2 samples.

Results

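The genes described here build the machinery that divides a cell at the end of mitosis: ANLN, ECT2, PRC1, RACGAP1, CIT, CEP55, INCENP, CDCA8 and BIRC5. They were chosen by name, as components of the central spindle, the contractile ring, abscission and the chromosomal passenger complex, and every probe set that the platform annotation assigns to 1 of them alone was taken. The members, and the lists of other genes set beside them, were chosen with earlier results of these data known. Of the 9 genes, 8 had such probe sets, 13 in all, out of 17689 genes with a value and 44672 probe sets in the file. CIT had none, because both of its probe sets are assigned to CIT and the microRNA gene MIR1178 together, and it therefore has no gene value.

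RNA was measured on Affymetrix Human Genome U133 Plus 2.0 arrays in LNCaP, a human prostate carcinoma line that responds to androgen. One culture had been infected with lentivirus from the empty pLKO.1 vector (control) and the other with lentivirus carrying the shKDM4A construct, a single hairpin construct against the histone demethylase KDM4A (knockdown), and both were harvested 3 days later. Virus for both was made in HEK293T packaging cells, and no scrambled hairpin was part of the comparison. The control was 1 array and the knockdown 1 array, so there was no spread between cultures, no test and no p-value, and having so few arrays limits how precise any value can be.

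The question was how the RNA of these genes differed when KDM4A was reduced. Each array value is the RMA signal of a probe set, on a scale taken to be log2, minus the mean of both arrays. The value of the knockdown is therefore the mirror image of that of the control, and the signal level itself is lost. A difference is the knockdown value minus the control value, so -1 is a 2-fold lower signal. A gene's difference is the mean over its probe sets, and ± SD stands for the spread among those probe sets. All genes together had a median of 0.020, and their quartiles were -0.14 and 0.18. The targeted gene, KDM4A, lay at -1.18 ± 0.40 (SD, n = 2 probe sets), with its probe sets at -0.90 and -1.46; KDM4C lay at -0.42 and KDM4D at 0.15. Because levels are lost, the identity of the cells could not be checked from markers. Differences of marker lists had medians of 0.11 over 8 luminal prostate genes, 0.056 over 5 basal genes, 0.044 over 9 stromal genes, -0.013 over 4 leukocyte genes and 0.028 over 5 genes of the embryonic kidney line, and single markers lay farther from 0. ACTA2, of the stromal list, lay at 2.14 ± 2.42 (n = 2 probe sets, at 0.43 and 3.85). COL1A1 lay at 0.73 ± 0.76 (n = 4 probe sets) and COL3A1 at 0.63 ± 0.68 (n = 3 probe sets). Of the 9 stromal genes, 6 lay above 0 and 3 below, FAP the lowest at -0.29. Of the luminal list, FOXA1 lay at -1.16 ± 1.75 (n = 2 probe sets, at -2.39 and 0.079) and TMPRSS2 at -0.76, with all 4 probe sets below 0. The other 6 measured luminal genes lay above 0, FOLH1 the highest at 0.48. The part of these markers in the results below was not tested.

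Cytokinesis begins in anaphase, when antiparallel microtubules are bundled between the separating chromosomes into the central spindle. The chromosomal passenger complex, a kinase held by a scaffold and targeting subunits, moves from centromeres to this midzone and helps to place the cleavage plane. The centralspindlin complex there recruits the exchange factor that activates RhoA, which assembles an actomyosin ring at the cortex, and the final bridge is cut by ESCRT filaments. Most of these genes are transcribed periodically, with their highest RNA in G2 and mitosis, and many such promoters carry a cell cycle genes homology region (CHR) near the start site, a site for DREAM and MuvB complexes that often lies downstream of CCAAT boxes bound by NF-Y. In a bulk culture, fewer cells in G2 and mitosis and less RNA per cell cannot be told apart.

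The promoter windows of 5 members are shown because they span the range of differences described below, from CEP55, the lowest, through PRC1, CDCA8 and ANLN to INCENP, which was not lower. Each runs 5′ to 3′ from 250 bases before to 50 bases after the RefSeq start on GRCh38.p14. Capitals mark matches to the CHR letters TTTGAA or TTCGAA and to the box CCAAT, each on either strand, so that TTCAAA and ATTGG are the reverse forms. The windows are chr10:93496362-93496661, plus strand (CEP55), chr15:90994486-90994785, minus strand (PRC1), chr1:37692266-37692565, plus strand (CDCA8), chr7:36389612-36389911, plus strand (ANLN) and chr11:62123761-62124060, plus strand (INCENP).
CEP55: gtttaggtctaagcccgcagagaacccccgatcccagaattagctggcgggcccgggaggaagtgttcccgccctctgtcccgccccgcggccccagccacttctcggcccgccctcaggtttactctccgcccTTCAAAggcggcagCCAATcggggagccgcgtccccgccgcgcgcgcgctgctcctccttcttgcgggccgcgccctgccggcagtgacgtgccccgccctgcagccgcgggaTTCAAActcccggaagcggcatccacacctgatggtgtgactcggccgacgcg
PRC1: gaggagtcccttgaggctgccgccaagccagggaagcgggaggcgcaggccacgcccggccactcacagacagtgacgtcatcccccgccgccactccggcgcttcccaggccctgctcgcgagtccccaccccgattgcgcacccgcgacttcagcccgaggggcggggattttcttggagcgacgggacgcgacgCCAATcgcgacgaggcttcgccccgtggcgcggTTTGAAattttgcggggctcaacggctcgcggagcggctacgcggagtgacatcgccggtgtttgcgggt
CDCA8: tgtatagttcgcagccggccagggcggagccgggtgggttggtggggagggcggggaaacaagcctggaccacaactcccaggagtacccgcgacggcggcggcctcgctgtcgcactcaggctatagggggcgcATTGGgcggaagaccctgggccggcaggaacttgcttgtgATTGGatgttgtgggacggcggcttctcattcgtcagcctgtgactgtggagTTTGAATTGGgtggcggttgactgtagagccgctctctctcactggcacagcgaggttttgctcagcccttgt
ANLN: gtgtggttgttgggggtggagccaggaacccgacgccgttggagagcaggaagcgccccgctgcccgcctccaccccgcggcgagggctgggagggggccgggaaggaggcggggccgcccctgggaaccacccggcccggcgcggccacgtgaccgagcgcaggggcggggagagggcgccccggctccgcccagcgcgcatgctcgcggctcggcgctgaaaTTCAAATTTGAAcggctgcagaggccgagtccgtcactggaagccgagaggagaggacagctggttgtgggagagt
INCENP: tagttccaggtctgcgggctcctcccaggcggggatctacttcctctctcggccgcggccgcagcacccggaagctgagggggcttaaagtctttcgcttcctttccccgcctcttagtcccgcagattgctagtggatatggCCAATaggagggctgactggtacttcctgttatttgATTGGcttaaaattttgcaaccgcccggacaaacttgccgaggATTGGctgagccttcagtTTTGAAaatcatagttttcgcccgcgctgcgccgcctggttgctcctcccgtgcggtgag

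As a group the members were lower in the knockdown. Of the 8 measured genes, 7 lay below 0 and 5 were at least 2-fold lower, with a median difference of -1.12 (2.18-fold lower). Among all 17689 genes, 1.44% were at least 2-fold lower, and 46.3% lay below 0. No member was 2-fold higher, a size that 1.16% of all genes reached. With a smaller size rule of 1.5-fold, 6 of the 8 members passed against 4.38% of all genes, and with 3-fold, 2 members (CEP55 and PRC1) passed against 0.458%. Of the 13 member probe sets, 12 lay below 0 and 6 were at least 2-fold lower, against 2.39% of all probe sets assigned to 1 gene. The order from lowest to highest was CEP55, PRC1, BIRC5, ECT2, RACGAP1, CDCA8, ANLN and INCENP. BIRC5, ECT2, RACGAP1 and CDCA8 lay within 0.36 of each other, which is less than the SD between the probe sets of BIRC5 or of ECT2. Once probe sets with the suffix _x_at or _s_at were dropped, since more than 1 transcript can bind them, only 4 members kept a value. Of these, 2 (CEP55 and BIRC5) were at least 2-fold lower and the median was -0.67. The share of all genes at least 2-fold lower with those probe sets dropped was not computed.

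**Figure D1:**
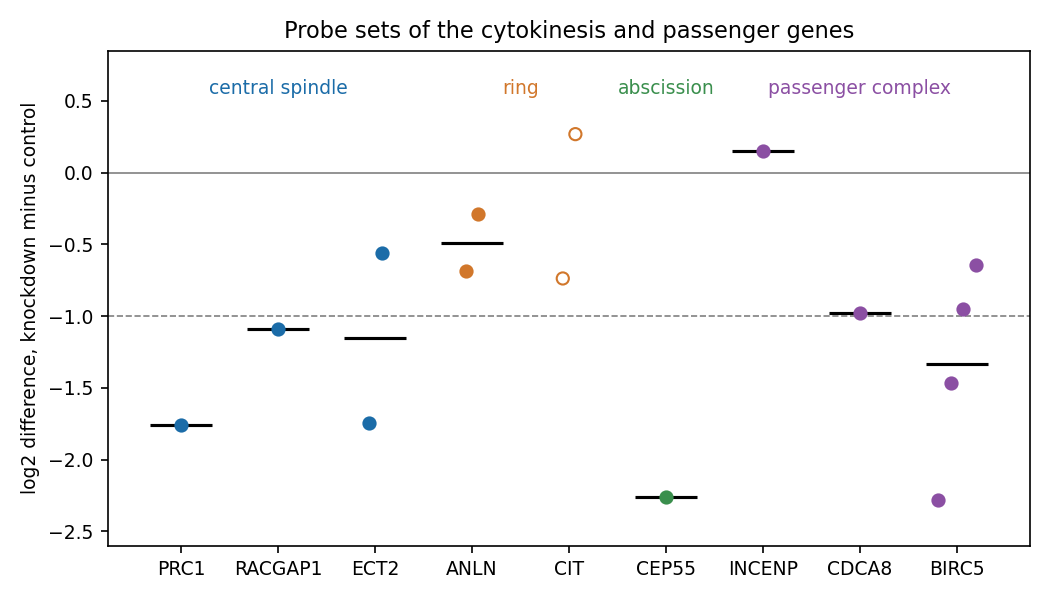
Log2 difference (knockdown minus control) of each probe set, by gene and coloured by role. Points are probe sets, black bars are gene means, the dashed line is a 2-fold lower signal, and open points are the probe sets assigned to CIT and MIR1178 together. All single-gene probe sets but that of INCENP lie below 0, and those of BIRC5 run from -2.28 to -0.65.

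The 3 measured members of the central spindle and its RhoA switch were all at least 2-fold lower. PRC1, which cross-links the antiparallel microtubules of the midzone, read 0.88 on the control array and -0.88 on the knockdown array, a difference of -1.76 (3.39-fold lower) from 1 probe set. It ranked 62 from the lowest of all genes. RACGAP1, the GTPase-activating subunit of centralspindlin, read 0.54 on the control array and -0.54 on the knockdown array, a difference of -1.09 (2.13-fold lower), also from 1 probe set. ECT2, the exchange factor that RACGAP1 recruits to activate RhoA, lay at -1.15 ± 0.84 (SD, n = 2 probe sets; 2.22-fold lower). Its probe sets agreed in direction but not in size. The probe set 219787_s_at read 0.87 in the control and -0.87 in the knockdown, a difference of -1.75, and 234992_x_at read 0.28 and -0.28, a difference of -0.56. Of the 4485 genes with 2 probe sets, 1.83% had probe sets as far apart. Without probe sets ending in _x_at, ECT2 lay at -1.75 (a 3.35-fold lower signal), so its size rests on which probe set is read.

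The contractile ring was represented by ANLN alone, and it differed less. ANLN encodes anillin, the scaffold that links actin, myosin, septins and RhoA at the cleavage furrow. Its probe set 222608_s_at read 0.34 in the control and -0.34 in the knockdown, a difference of -0.69. The other, 1552619_a_at, read 0.14 and -0.14, a difference of -0.29. The mean of -0.49 ± 0.28 (SD, n = 2 probe sets; 1.40-fold lower) fell short of the 1.5-fold rule and ranked 1064 from the lowest. MATCAP2, which overlaps ANLN in the RefSeq annotation, lay on the opposite side at 1.08 (2.11-fold higher, 1 probe set).

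CEP55, the midbody protein that recruits the abscission machinery, had the lowest difference of the members. Its probe set read 1.13 on the control array and -1.13 on the knockdown array, a difference of -2.26 (4.79-fold lower). This placed it at rank 31 from the lowest of 17689 genes. The probe set carries neither of the suffixes for shared transcripts, so the value was the same under each choice of probe sets, but it is the only one for the gene.

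The values of the passenger complex subunits did not all lie on the same side of 0. BIRC5 (survivin), the subunit that docks the complex on phosphorylated histone H3, was 2.53-fold lower at -1.34 ± 0.72 (SD, n = 4 probe sets), rank 129 from the lowest. All 4 of its probe sets were lower in the knockdown. The lowest, 202095_s_at, read 1.14 in the control and -1.14 in the knockdown, a difference of -2.28. The probe sets 202094_at, 210334_x_at and 1555826_at gave differences of -1.46, -0.95 and -0.65. The lowest and highest differences thus lay 1.64 apart, a range that 3.17% of the 1136 genes with 4 probe sets reached. CDCA8 (borealin), which binds survivin and INCENP in the targeting module, read 0.49 in the control and -0.49 in the knockdown. Its difference of -0.98 (1.97-fold lower, 1 probe set) lay just short of the 2-fold rule, whereas RACGAP1, at 2.13-fold, lay just past it. INCENP, the scaffold on which the other subunits assemble and which activates the kinase, was the only member above 0. It read -0.075 on the control array and 0.075 on the knockdown array, a difference of 0.15 (1.11-fold higher) from 1 probe set, and 70.7% of all genes lay at or below it. Because levels are lost, whether this probe set lay above background is not known. The kinase of the complex, AURKB, lay at -0.75 ± 0.54 (SD, n = 2 probe sets), with probe sets at -1.13 and -0.38. The passenger complex thus had 1 subunit lower by more than 2-fold, 2 lower by less and 1 slightly above 0.

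**Figure D2:**
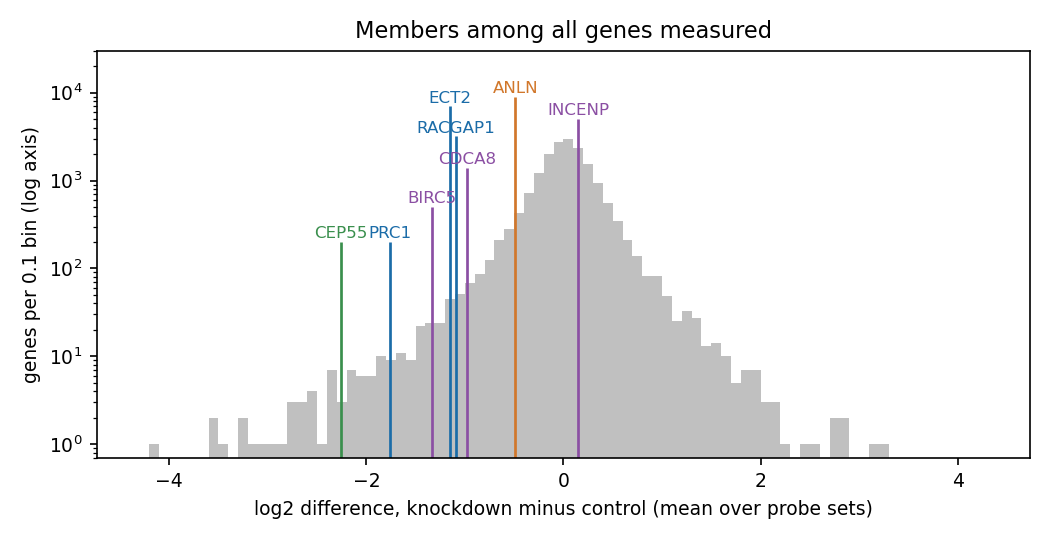
Histogram of the log2 differences of all 17689 genes in bins of 0.1 (log axis), with a vertical line for each of the 8 measured members, coloured by role as in the plot of probe sets; line heights only separate the labels. CEP55 at -2.26 and PRC1 at -1.76 lie in the lower tail, and INCENP at 0.15 lies near the centre.

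BIRC5 also belongs to the inhibitor of apoptosis family, named for the BIR domain. Of the other family members, 5 were measured, with a median of 0.10, and none was 2-fold lower. Among all genes 1.44% were, so with 5 genes this count says little. Over the 3 genes left without probe sets ending in _x_at or _s_at the median was -0.12. NAIP, an inflammasome sensor with near-identical copies in the genome, was 2.36-fold higher (1.24 ± 0.51, SD, n = 3 probe sets), XIAP, a caspase inhibitor, lay at -0.35 ± 0.18 (n = 7 probe sets) and BIRC6 at 0.25 ± 0.072 (n = 2 probe sets).

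The lists of other pathway genes differed in their medians, but not every gene followed the median of its list. Among 8 genes that recruit, oppose or serve the passenger complex, 7 lay below 0 and 2 were at least 2-fold lower, with a median of -0.75. These were KIF2C, a microtubule depolymerase at centromeres (-2.17 ± 0.64, n = 2 probe sets), and SGO2, a protector of centromeric cohesion (-1.54 ± 0.40, n = 2 probe sets). HASPIN, the kinase that writes the histone mark read by survivin, lay at -0.80. AURKC was the gene above 0, at 0.045. Among 10 partners at the central spindle, 8 lay below 0 and 4 were at least 2-fold lower, with a median of -0.76. The 2 above 0 were CDC14A (0.38) and CLASP1 (0.11), and CLASP2 (-0.27) and CDC14B (-0.071) lay not far below 0. KIF20A, the kinesin that carries the passenger complex to the midzone, was the lowest at -3.13 (8.73-fold lower). KIF14, a kinesin that binds citron kinase and PRC1, lay at -1.97 ± 0.030 (n = 2 probe sets). PLK1, the kinase that prepares RACGAP1 for ECT2, lay at -1.22, and KIF23, the motor partner of RACGAP1 in centralspindlin, at -1.18 (2.27-fold lower), close to RACGAP1 itself at -1.09.

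The general parts of the ring and of the membrane cutting machinery, which serve many processes outside division, lay around 0. Of 17 measured genes of the ring, 6 lay below 0 and 1 was at least 2-fold lower, with a median of 0.11. That gene was DIAPH3, a formin (-1.21 ± 0.33, n = 2 probe sets). MYH9, a heavy chain of non-muscle myosin, lay at 0.62, MYL12B, a light chain, at 0.46 and RHOA was among the 11 above 0. Of 11 measured septins, 4 lay below 0 and none was 2-fold apart, with a median of 0.014. SEPTIN10 lay at -0.70 ± 0.24 (n = 2 probe sets), SEPTIN3 at 0.44 and SEPTIN7 at 0.32 ± 0.42 (n = 3 probe sets). Of 25 measured ESCRT and abscission genes, 11 lay below 0 and none was 2-fold apart, with a median of 0.058. The farthest from 0 were VPS36, of ESCRT-II (-0.58), CHMP2A, of ESCRT-III (-0.55), and CHMP2B, also of ESCRT-III (0.42 ± 0.30, n = 3 probe sets). Among all genes 1.44% were at least 2-fold lower and 1.16% at least 2-fold higher. With 11 septins and 25 abscission genes, finding none therefore says little. In all, 1 of these 53 genes was at least 2-fold lower (1.89%), close to the 1.44% of all genes, against 6 of the 18 passenger and central spindle partners (33.3%). CEP55, at -2.26, lay far below TSG101, the ESCRT-I subunit it recruits, at 0.035, a pair named after the values were seen and a difference that could not be tested with 1 array a group.

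**Figure D3:**
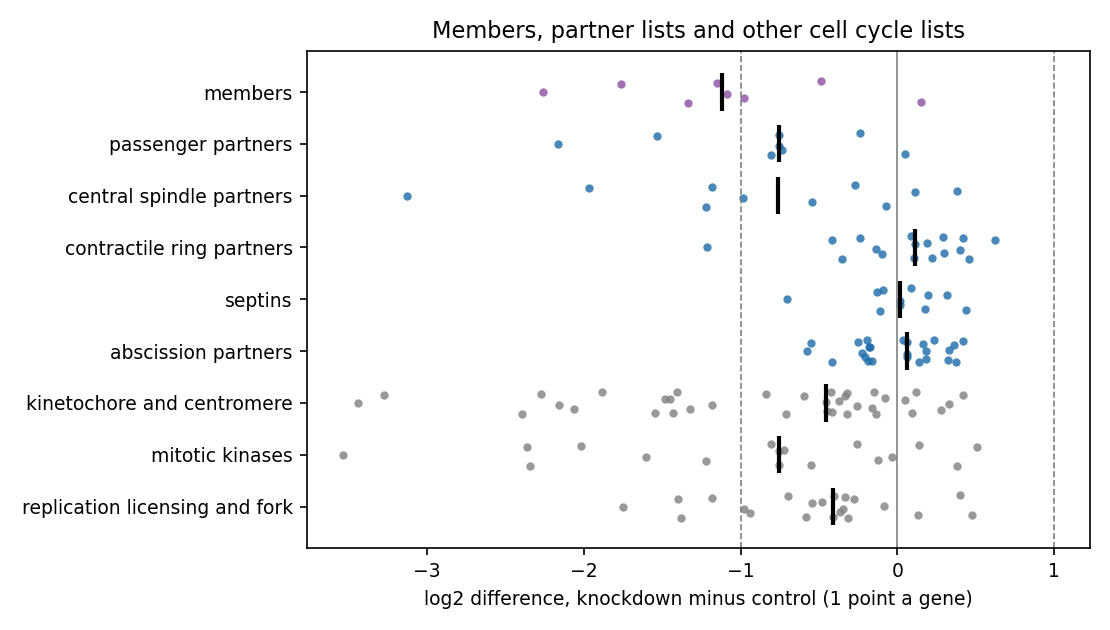
Log2 differences of the genes in the member list, the lists of partners and lists of other cell cycle genes. Each point is 1 gene, black bars are list medians and dashed lines mark 2-fold in either direction. The medians of the members (-1.12), passenger partners (-0.75) and central spindle partners (-0.76) lie below 0, and those of the ring, septin and abscission lists lie between 0.014 and 0.11.

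Other cell cycle lists also had medians below 0. Of 36 measured kinetochore and centromere genes, 30 lay below 0 and 14 (38.9%) were at least 2-fold lower, with a median of -0.45 and a lowest value of -3.44 for NDC80. Of 17 mitotic kinases, 6 (35.3%) were at least 2-fold lower, with a median of -0.75 and a lowest value of -3.54 for PBK. AURKB, PLK1, HASPIN and BUB1 are counted both there and among the partners above. Of 21 genes of replication licensing and forks, 18 lay below 0 and 4 (19.0%) were at least 2-fold lower, with a median of -0.41 and a lowest value of -1.75 for CDC6. The members' share at least 2-fold lower was 62.5% of 8 genes, with a median of -1.12. Without probe sets ending in _x_at or _s_at the order of the medians turned, with -0.67 for the 4 members left and -0.75 for 15 mitotic kinases. Lists of such different sizes are set side by side as a description, and nothing about them was tested.

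In sequence, the members shared the CHR letters, a feature the choice of genes did not use. The table of RefSeq promoters held 7 of the 9 members; RACGAP1 and BIRC5 were not in it. ECT2 had 2 start sites, so 8 windows were read. TTTGAA, in either direction, occurred in all 8, against 15.2% of the 35116 windows in the table; with TTCGAA added the share of all windows was 16.4%. For genes measured on the arrays it was 12.9% of 19628 windows, and for genes at least 2-fold lower, which include members, 22.8% of 276 windows. From 100 bases before the start to 50 after it, 7 of the 8 member windows held a match, against 7.37% of all windows. The window without one was that of the downstream start of ECT2, which overlaps the upstream window. In the full windows a TTTGAA in this overlap is counted in both.

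In several members the match lay just before the start. Counted from the start site as base 1, with no base 0, the match lay at -20 to -15 in PRC1, at -23 to -18 in CDCA8 and at -10 to -5 in INCENP. ANLN had 2 abutting matches in opposite directions, at -26 to -21 and -20 to -15, which together read TTCAAATTTGAA in the sequence above. In CEP55 the matches were at -116 to -111 and across the start itself, at -3 to 3. CIT, whose window is not printed, had matches at -208 to -203 and at 11 to 16. ECT2, also not printed, had matches at -115 to -110 and at 35 to 40 around its upstream start. Around its downstream start they lay at -242 to -237 and at -182 to -177. CCAAT, in either direction, occurred in 6 of the 8 windows (75.0%), against 34.6% of all windows; ANLN and the downstream start of ECT2 had none. In CDCA8 the last base of the CHR match is also the first base of an ATTGG match. The E2F letters TTTGGCGC, TTTCGCGC, TTTCCCGC and TTTGCCGC, in either direction, were in none of the 8 windows and in 3.31% of all windows, which says only that these letters are not in these windows.

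**Figure D4:**
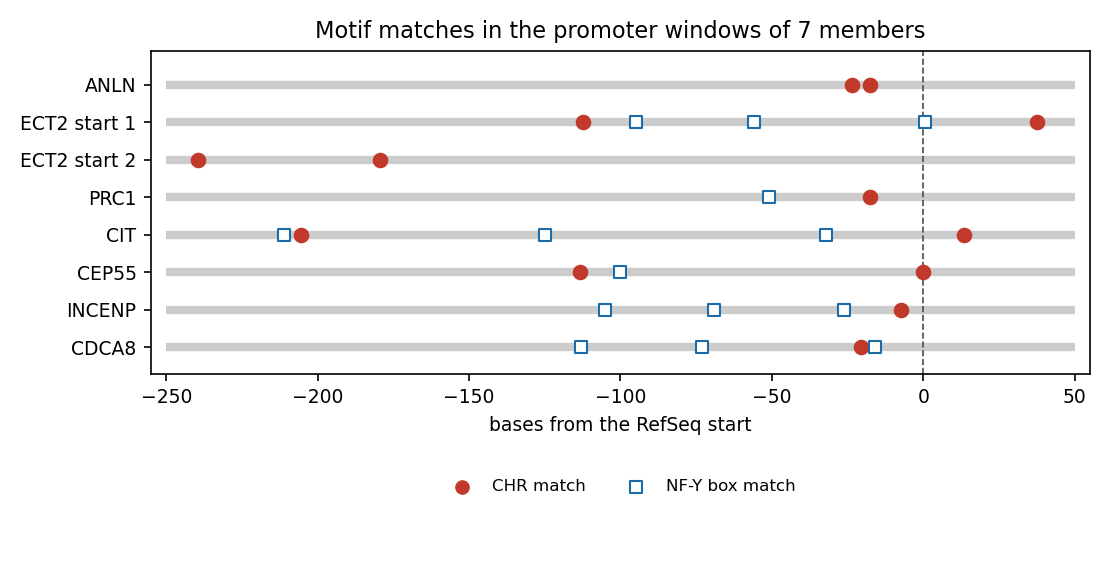
Positions of CHR matches (filled circles) and of the CCAAT box bound by NF-Y (open squares) in the 8 promoter windows of 7 members, in bases from the RefSeq start (dashed line). Grey bars are the windows, from 250 bases before to 50 after the start. Every window holds a CHR match, and 7 of them hold one within 100 bases before to 50 after the start.

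All 8 member windows held CHR letters, both at genes that were lower and at INCENP. CIT has a window but no gene value, and RACGAP1 and BIRC5 have values but no window. A link between the letters and the size of a difference was not tested. CEP55 (-2.26), with CHR and CCAAT matches, and INCENP (0.15), with both as well, stood at opposite ends of the members. ANLN (-0.49), with CHR matches but no CCAAT, lay between them. Among the partners, CHR letters occurred in 7 of 15 windows of central spindle genes (46.7%), 2 of 8 of passenger partners (25.0%, and 0 with TTTGAA alone), 3 of 26 of ring genes (11.5%), 1 of 27 of septins (3.70%) and 2 of 27 of abscission genes (7.41%). A match is a description of letters, and binding at these promoters was not measured here.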

How the data were processed

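RNA of 2 LNCaP cultures, 1 control and 1 KDM4A knockdown, was measured on 1 array each. The values the authors deposited were read as log2; the submitters' processing notes name RMA without a version. Both arrays' values added up to 0 in every row (tolerance 1e-06), which means they were centred on their mean. How this was done, the log base and any filter were not given in the sources used here; base 2 was taken, as in RMA. Dim probe sets could not be filtered.

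Probe sets were named through the platform annotation: 34880 had 1 gene, of which 34839 matched RefSeq by Entrez identifier with 0 symbols changed, 1619 had several genes, 8131 had none, and 42 control probe sets were left out. The size rule was 2-fold on the mean over probe sets. All 9 members, KDM4A, AURKB and KIF23 were to be named, and from each list up to 6 genes at least 2-fold apart or, where fewer than 3, the 3 farthest from 0; the kinetochore, kinase and replication lists are given by their lowest gene and counts. Members and lists were chosen with earlier results of these data known. The alternatives were the median over probe sets, probe sets without shared suffixes, centring on the median, other size rules, and other motif letters or windows. Promoter windows are from RefSeq (GRCh38.p14). The gene summary was tested on simulated data. Python 3.11.15, numpy 2.4.6, pandas 2.3.3 and matplotlib 3.10.9 were used.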

Additional observations from a re-analysis of the deposited data

Results flagged for a closer look

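Both probe sets assigned to CIT and MIR1178 together gave differences that no gene value above uses. The probe set 212801_at read 0.37 in the control and -0.37 in the knockdown, a difference of -0.74 (1.67-fold lower). The probe set 242872_at read -0.13 and 0.13, a difference of 0.27 (1.20-fold higher). MIR1178 lies within CIT, whose product is citron kinase, a midbody organiser, and the 2 probe sets lay on opposite sides of 0.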

How the results depend on the processing

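No paired analysis was possible because each group had 1 array. A value was held to have moved when it shifted by more than 0.33, the pooled SD among a gene's probe sets, and a count when it changed by over 1.5 times. Of 81 recomputed values, 75 did not move, 6 did, and none of the differences of at least 2-fold changed sign. Many of them could not move. Subtracting the median of all probe sets shifts a difference by 0.023, and a gene with 1 or 2 probe sets has the same mean and median. Members left without a value were not among the 81. The count of unmoved values is therefore no measure of how firm the results are. Without probe sets ending in _x_at or _s_at the median of the members was -0.67 over 4 genes, 2 genes were at least 2-fold lower, and 2 of 5 probe sets were; 4 members had no probe set left. The shares of all genes and of all probe sets under this filter were not computed. Without _x_at alone, ECT2 moved to -1.75. At 3-fold 2 members passed, and 3 did when every probe set of a gene had to be at least 2-fold lower. Those 3 were CEP55, PRC1 and RACGAP1, each with 1 probe set, so this rule asked nothing more of them. ANLN, ECT2 and BIRC5, with several probe sets, did not pass, their highest probe sets lying at -0.29, -0.56 and -0.65. The share of all genes passing this rule was not computed. With the median of all probe sets subtracted, CDCA8 passed the 2-fold rule as well, making 6 members, while the septin median turned from 0.014 to -0.0087. The share of all genes passing after this shift was not computed. The inhibitor of apoptosis median turned from 0.10 to -0.12 over the 3 genes left without shared suffixes. Chosen after seeing the data, counting CIT from its shared probe sets gave a median of -1.09 over 9 genes, with 5 at least 2-fold lower. CHR letters occurred in 8 of 8 member windows with TTTGAA alone and in 7 in the shorter window. Levels over background could not be had from centred values.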
